A study of Mus musculus with 26 samples.

Results

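Imprinted genes are transcribed mainly from the copy inherited from 1 parent, and 40 of them were followed here by symbol through every library of a study of mouse oocytes and early embryos that lacked 2 histone demethylases of maternal origin. A gene was kept at a stage when its level was at least 1 TPM in at least 2 libraries of that stage. All 40 were found among the 24412 symbols in the tables. Of them 34 were kept in at least 1 stage, and 14 at every stage. By stage, 23 were kept in MII oocytes, 27 in early 2-cell embryos, 30 in late 2-cell embryos and 23 in 4-cell embryos. TPM gives each transcript its share of a fixed total after correction for transcript length. It does not separate the parental alleles, so the levels below are sums over both copies, and the parental origin of no transcript was measured.

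Imprints are DNA methylation marks that the egg or the sperm places on control regions, and they survive the erasure of methylation that follows fertilization. The zinc finger protein ZFP57 binds the methylated hexamer TGCCGC in these regions and recruits TRIM28, which keeps H3K9 methylation and DNA methylation in place on the marked copy. DPPA3, a maternal protein that binds dimethylated H3K9, protects methylation on the maternal genome, and KDM3A and KDM3B remove mono- and dimethyl marks from H3K9. A further set of genes is silenced on the maternal copy through H3K27me3 instead of DNA methylation. Many imprinted genes control growth of the fetus and placenta, with maternally expressed members tending to restrain growth and paternally expressed members tending to promote it.

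The study comprised 26 libraries of polyA RNA in 13 groups of 2, each made from a pool of oocytes or embryos of strain C57BL/6J, 20 per pool for late 2-cell embryos and 12 to 20 for the rest. The maternal double knockout (mDKO) came from Zp3-Cre; Kdm3a f/f; Kdm3b f/f females, in which Cre is active in growing oocytes, and their eggs were fertilized in vitro by wild-type sperm, so the paternal copies of both genes were intact. Without injection, mDKO and control samples were taken as MII oocytes and at the early (E2C) and late (L2C) 2-cell stage. Injected E2C groups were mDKO with Kdm3aWT, mDKO with Kdm3aHA, mDKO with mCherry and control with mCherry, and injected wild-type 4-cell (4C) groups received Kdm3aWT, Kdm3aHA or mCherry. No source used here gives the genotype of the controls, the nature of the HA construct, or separate matings behind the 2 pools of a group, so p-values may measure only the spread between these pools. A TruSeq kit was used for MII oocytes and SMART-Seq kits for E2C and 4C embryos, and no source used here names the kit of L2C embryos.

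The sequences before the starts of 3 genes are shown because these genes were lower in mDKO than in control E2C embryos without injection. They are the 250 bases upstream of the RefSeq start, 5′ to 3′ on the gene's strand, on GRCm38.p6, the assembly that mm10 represents. Another stretch lies between Peg3 and Usp29, which run in opposite directions from it. Capitals mark the ZFP57 hexamer TGCCGC or the TATA-box hexamer TATAAA, each searched on both strands, with no overlap between the matches shown.
Phlda2, chr7:143502525-143502774, minus strand: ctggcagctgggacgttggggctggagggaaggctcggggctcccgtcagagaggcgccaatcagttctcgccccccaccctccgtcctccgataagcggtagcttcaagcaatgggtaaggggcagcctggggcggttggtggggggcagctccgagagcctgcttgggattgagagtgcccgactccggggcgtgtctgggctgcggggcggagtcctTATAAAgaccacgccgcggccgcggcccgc
Mcts2, chr2:152686898-152687147, plus strand: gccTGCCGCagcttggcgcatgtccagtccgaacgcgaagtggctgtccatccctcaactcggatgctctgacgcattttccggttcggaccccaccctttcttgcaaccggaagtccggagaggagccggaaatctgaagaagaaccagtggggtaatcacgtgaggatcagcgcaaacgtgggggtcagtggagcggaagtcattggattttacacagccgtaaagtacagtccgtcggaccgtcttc
Zrsr1, chr11:22971755-22972004, plus strand: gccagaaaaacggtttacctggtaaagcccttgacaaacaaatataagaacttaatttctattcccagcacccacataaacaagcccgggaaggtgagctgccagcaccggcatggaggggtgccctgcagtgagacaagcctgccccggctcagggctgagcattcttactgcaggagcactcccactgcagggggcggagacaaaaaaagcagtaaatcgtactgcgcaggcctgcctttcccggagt
Peg3-Usp29 interval, chr7:6730463-6730558, plus strand: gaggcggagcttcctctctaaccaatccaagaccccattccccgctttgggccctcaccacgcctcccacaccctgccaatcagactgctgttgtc
RefSeq gave 50 such 250-base windows for 32 of the 40 genes. TGCCGC lay in 14.0% of the windows of these genes (7 of 50) and in 8.68% of all 32851 windows, and the genes that held it were Mcts2, Meg3, Mest, Nap1l5, Plagl1 and Zim1. TATAAA lay in 18.0% of their windows and in 12.4% of all windows, and Phlda2 carried it with its first base at position -30 from the RefSeq start that the window is counted from. Windows of 1 gene can overlap, as those of Mest from 30737800 and 30737803 and those of Gnas from 174327499 and 174327518 do. The shares of windows therefore count some sites more than once. By gene, TGCCGC lay in windows of 6 of these 32 genes and of 2660 of all 27025. The median number of CpG sites per window was 13 for these genes, against 6 for all windows. The Mcts2 window held 20 CpG sites with the hexamer at position -247, the Phlda2 window held 21 and the Zrsr1 window held 8.

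Every library summed to between 999986 and 1000000 TPM, so sequencing depth is unknown, and 7649 to 12396 genes per library reached 1 TPM. The 40 genes together took 0.0377% to 0.171% of the total. Kdm3a stood at 0.725 and 0.718 TPM in mDKO oocytes, against 8.08 and 8.83 TPM in control oocytes, and Kdm3b at 1.75 and 1.87 TPM, against 26.6 and 24.97 TPM. At L2C Kdm3a was present in both genotypes, at 28.4 and 26.3 TPM in mDKO and 34.1 and 43.8 TPM in control embryos. This difference missed the limit (limma, log2 change -0.49, adjusted p 0.0573). Kdm3b at L2C was at 0.651 and 1.79 TPM in mDKO and 3.06 and 3.70 TPM in control embryos. Injected mDKO embryos held 2315 to 4122 TPM of Kdm3a with either construct, against 0.262 and 0.411 TPM with mCherry. All 10 oocyte markers reached 1 TPM in every MII library, and the 8 early 2-cell markers found in the tables, of 10 listed, did so in every E2C library. The early 2-cell markers summed to 270.5 and 303 TPM in mDKO E2C embryos, against 1216 and 1755 TPM in controls, and to 2511 and 2021 TPM in mDKO L2C embryos, against 802 and 605 TPM in controls. The 20 cumulus and granulosa cell markers summed to 441 and 431 TPM in mDKO E2C embryos with mCherry, against 87.6 and 80.4 TPM in control E2C embryos with mCherry. Without injection the same sum was 211 and 261 TPM in mDKO and 119 and 114 TPM in control E2C embryos. How these differences bear on the imprinted genes was not tested, and in pooled embryos fewer cells of a type and less RNA per cell cannot be told apart.

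A different imprinted gene had the highest mean level at each stage, while Gnas and Nap1l4 were among the 5 highest at all 4. In MII oocytes the 5 highest means over the 4 libraries were Blcap at 562 TPM, Mest at 437 TPM, Gnas at 152 TPM, Nap1l4 at 147 TPM and H13 at 78.4 TPM. Blcap encodes an inhibitor of cell growth first found in bladder cancer, Mest a hydrolase-like protein, Gnas the stimulatory G protein alpha subunit, Nap1l4 a histone chaperone and H13 a signal peptide peptidase. By library Blcap had 512 and 533 TPM in mDKO and 623 and 580.2 TPM in control oocytes, Mest had 413 and 389 TPM in mDKO and 471 and 474 TPM in controls, and Nap1l4 had 138 and 122 TPM in mDKO and 169 and 158 TPM in controls. H13 had 75.03 and 80.4 TPM in mDKO and 82.6 and 75.5 TPM in control oocytes, and none of these 4 genes was called between genotypes at MII. At E2C, over 12 libraries, Gnas led at 205 TPM and Phlda2 was in place 5 at 30.9 TPM. At L2C Phlda2 led at 247 TPM, followed by Mcts2 at 150.1 TPM and Gnas at 129 TPM, over both genotypes. In mDKO L2C embryos Gnas (181 and 218 TPM) and Mcts2 (149 and 144 TPM) lay above Phlda2 (107 and 103 TPM), and in control L2C embryos Phlda2 (351 and 425 TPM) lay above both. Among 4C embryos Mcts2 led at 93.4 TPM, ahead of Phlda2 at 73.5 TPM, Nap1l4 at 69.7 TPM, Gnas at 37.2 TPM and Impact at 30.7 TPM. By parental class, 14 of 15 maternally expressed genes, 17 of 22 paternally expressed genes and all 3 isoform-dependent genes (Gnas, Blcap and Inpp5f) were kept in at least 1 stage.

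**Figure D1:**
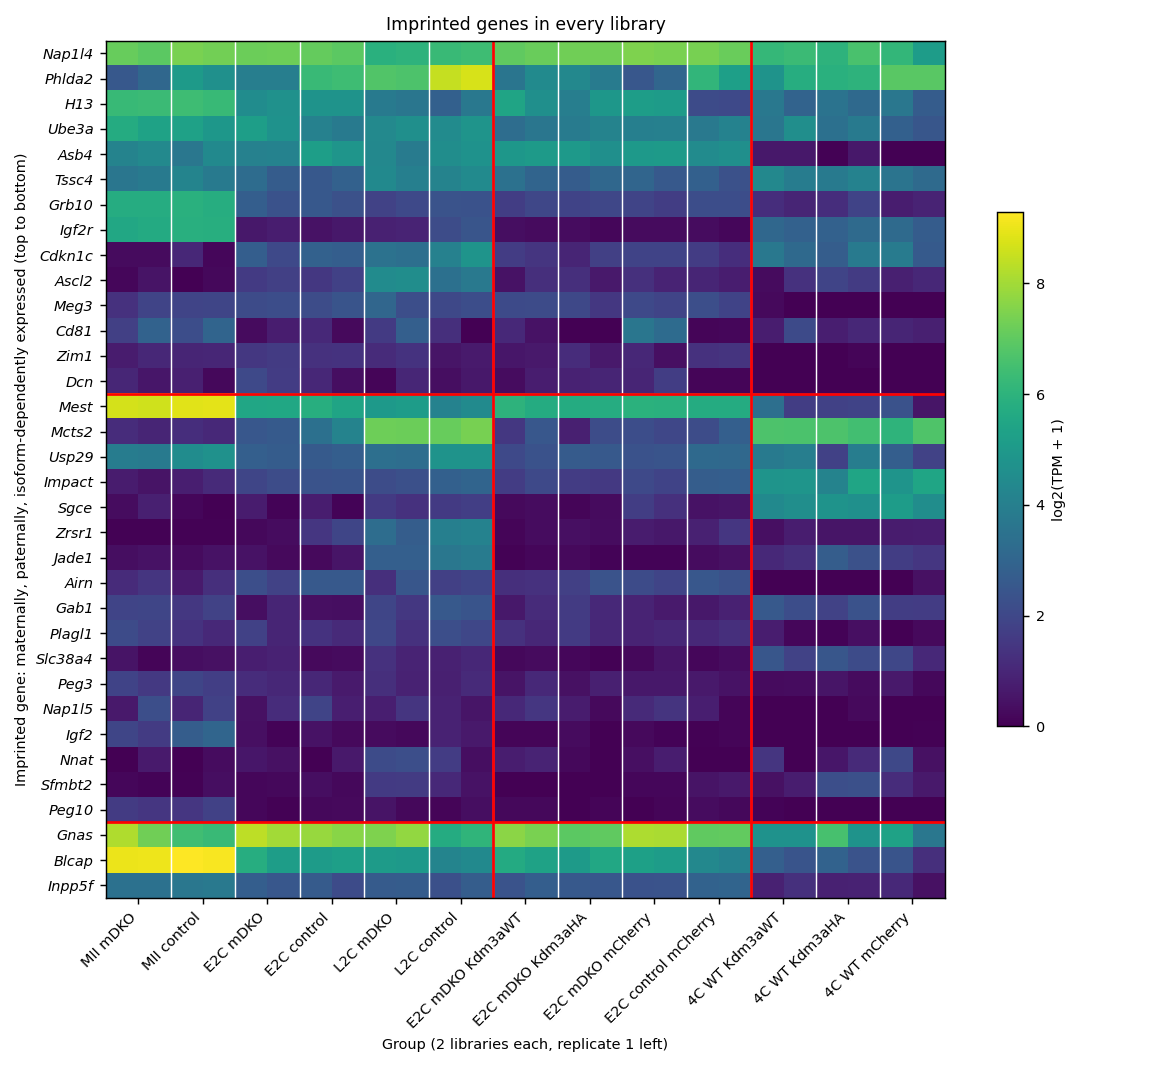
Level of the 34 kept genes as log2(TPM + 1), 1 column per library and 2 columns per group, with genes grouped by the parental copy they are known to be expressed from. Red lines separate the uninjected, injected E2C and injected 4C tables, which hold different libraries. Blcap and Mest stand out at MII, and Phlda2 and Mcts2 in control embryos at L2C.

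The 6 genes kept in no stage were H19, Ndn, Magel2, Dlk1, Smoc1 and Kcnq1ot1. Magel2, a MAGE family gene of the Prader-Willi region, was listed at 0 in all 26 libraries. H19, the growth-restraining long noncoding RNA next to Igf2, reached at most 0.0661 TPM, Dlk1, a Notch-like transmembrane protein, 0.184 TPM, Ndn, a neighbour of Magel2, 0.657 TPM, and Smoc1, a secreted matricellular protein, 0.788 TPM. Kcnq1ot1, the noncoding RNA that silences the Kcnq1 domain on the paternal copy, missed the rule by 1 library, at 0.387 and 0.452 TPM in mDKO and 0.878 and 1.08 TPM in control L2C embryos. Other values just below the limit were 0.994 TPM for Zim1 at MII and 0.862 TPM for Nap1l5 at L2C, as the second-highest library of the stage. Just above it were Cd81 at 4C with 1.04 TPM, Inpp5f at 4C and Slc38a4 at L2C with 1.07 TPM each, and Peg3 at E2C with 1.09 TPM.

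In controls, most tested imprinted genes changed between MII and E2C and again between E2C and L2C, as did most of all genes tested. Of 34 tested, 9 rose and 15 fell at E2C relative to MII (24 called, in a comparison that called 72.1% of all genes tested), and 15 rose and 6 fell at L2C relative to E2C (21 called, 65.6% of all genes tested). These calls used limma on log2(TPM + 1) with Benjamini-Hochberg adjustment over all genes tested and a limit of 0.05, as did every call below, and ± after a log2 change is its standard error. Oocyte-loaded transcripts that fell at E2C included Igf2r, the receptor that clears IGF2, at 0.363 and 0.508 TPM in E2C controls and 56.7 and 55.2 TPM in MII controls, a change of -5.31 ± 0.18. Blcap (-4.07), Grb10 (-3.43), an adaptor that limits insulin signalling, and Mest (-3.27) fell by more than 3 log2 units as well. Dividing by size factors moves the median of all genes in this comparison by over 0.1, to 0.19, as against 0.03 with TPM as deposited. Among the called genes, Igf2 and Peg10 reached the TPM limit of this fit at MII alone, and Jade1, Sgce and Slc38a4 at L2C alone, which fixes the direction of their difference between stages. MII and E2C libraries were made with different kits, so stage and kit cannot be told apart here.

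Genes that rose in both steps in control embryos were Phlda2, Cdkn1c, Ascl2, Impact, Zrsr1 and Mcts2. Mcts2, a retrogene of Mcts1 nested in H13, stood at 1.33 and 1.10 TPM at MII, 9.89 and 17.0 TPM at E2C and 140.3 and 167 TPM at L2C, with steps of 2.66 ± 0.23 and 3.46 ± 0.23. Zrsr1, a retrogene for a splicing factor nested in Commd1, stood at 0.0457 and 0.0510 TPM, 1.79 and 2.83 TPM and 15.0 and 16.5 TPM at the same stages. Jade1, a subunit of HBO1 acetyltransferase complexes, rose at the later step by 3.40 ± 0.20, to 12.0 and 13.6 TPM at L2C, as against 0.171 and 0.440 TPM at E2C. Gnas rose at E2C (1.39) and fell at L2C (-1.86). Calls that were lost when 1 control library was left out were Cd81 at E2C against MII without MII or E2C control replicate 2 (adjusted p 0.0600 and 0.0695) and Nap1l4 there without MII replicate 1 or E2C replicate 2 (0.112 and 0.138). At L2C against E2C they were Impact and Plagl1 without any 1 of the 4 control libraries (up to 0.124 and 0.135), and Ube3a without replicate 2 of either stage (up to 0.113).

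Cdkn1c and Ascl2 of the Kcnq1 domain were low in control oocytes and rose at both steps. Cdkn1c stood at 1.04 and 0.128 TPM at MII, 6.36 and 5.79 TPM at E2C and 16.0 and 26.96 TPM at L2C. Ascl2 stood at 0 and 0.155 TPM at MII, 1.80 and 2.44 TPM at E2C and 9.80 and 12.4 TPM at L2C. Cd81 fell to 1.09 and 0.163 TPM at E2C, against 3.58 and 6.97 TPM at MII, and Igf2 fell to 0.364 and 0.189 TPM at E2C, against 5.66 and 7.26 TPM at MII. Tssc4 followed a dip, with 17.4 and 13.3 TPM at MII, 4.94 and 6.32 TPM at E2C and 16.9 and 21.0 TPM at L2C. Grb10 stood at 59.0 and 54.2 TPM at MII, 4.85 and 3.90 TPM at E2C and 4.21 and 4.07 TPM at L2C. Usp29, Gab1 and Igf2r shared the dip of Tssc4, falling at E2C and rising at L2C, and Gab1 stood at 1.81 and 2.54 TPM at MII, 0.291 and 0.260 TPM at E2C and 5.09 and 4.36 TPM at L2C. Inpp5f fell to 5.42 and 3.30 TPM at E2C, against 11.8 and 12.6 TPM at MII, and H13 fell in both steps, with 82.6 and 75.5 TPM at MII, 26.5 and 26.1 TPM at E2C and 6.17 and 12.3 TPM at L2C. Asb4 and Airn rose at E2C and were not called at the later step. Asb4 stood at 11.8 and 20.1 TPM at MII, 35.5 and 27.9 TPM at E2C and 22.6 and 25.3 TPM at L2C, and Airn at 0.605 and 1.36 TPM at MII, 4.98 and 5.09 TPM at E2C and 2.36 and 2.81 TPM at L2C. Impact stood at 0.728 and 1.15 TPM at MII, 4.14 and 4.35 TPM at E2C and 6.28 and 6.94 TPM at L2C. Plagl1 was at 3.67 and 2.90 TPM at L2C and 1.56 and 1.16 TPM at E2C, and Slc38a4 at 0.827 and 1.07 TPM at L2C and 0.181 and 0.206 TPM at E2C.

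**Figure D2:**
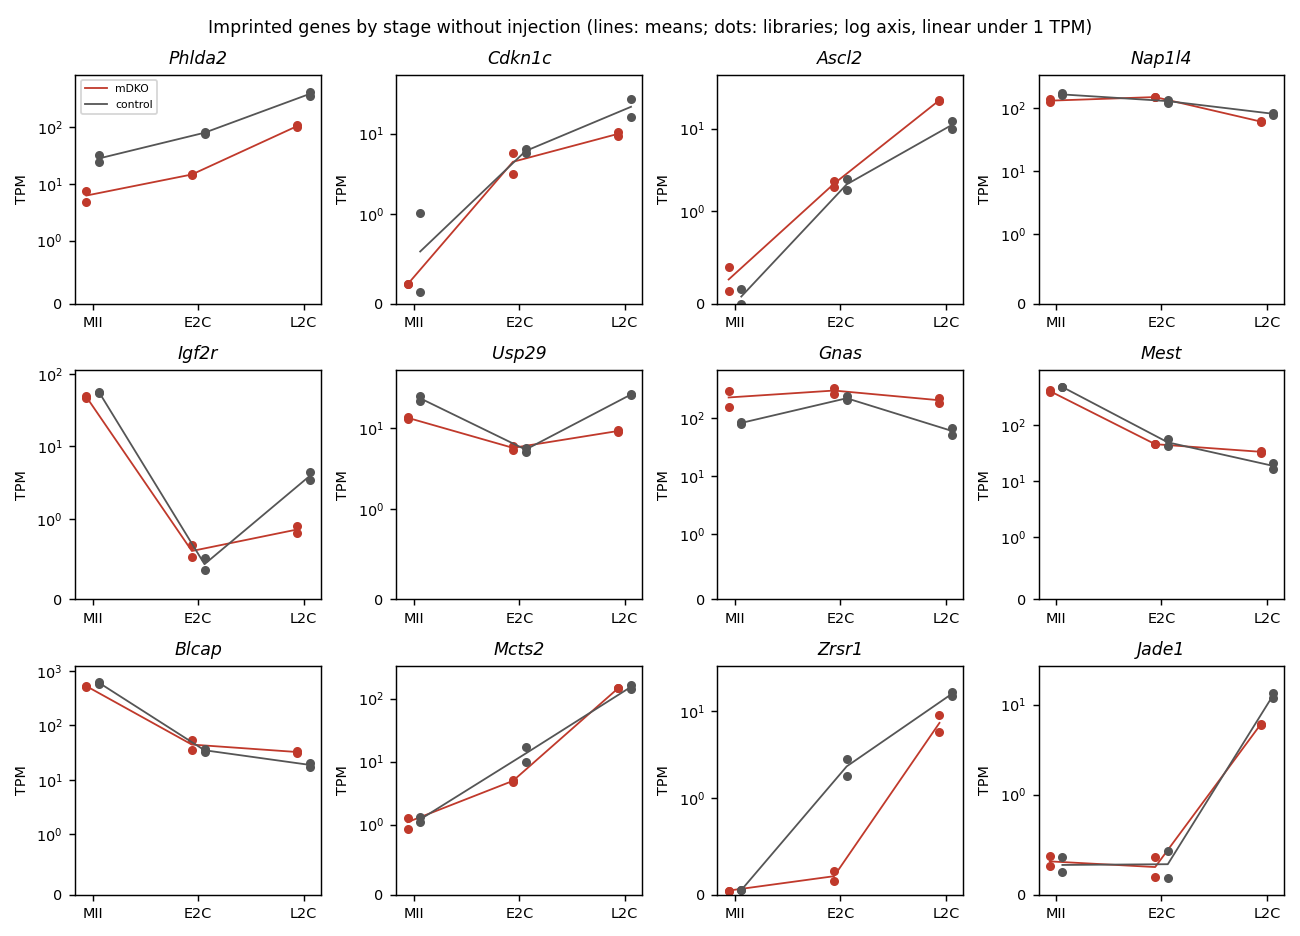
Level of 12 imprinted genes in TPM at MII, E2C and L2C without injection, on a log axis that is linear under 1 TPM. Dots are libraries and lines join the means of mDKO (red, left) and control (grey, right). The mDKO means of Phlda2 lie below the control means at all 3 stages, and those of Gnas above them.

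In embryos without maternal KDM3A and KDM3B, called imprinted genes were 1 at MII, 6 at E2C and 14 at L2C. At MII 1 of 23 tested genes was called, lower in mDKO, in a comparison that called 4.25% of all genes. Between genotypes, here and below, rose and fell mean higher and lower in mDKO than in control at the same stage. At E2C 2 of 24 rose and 4 fell (6 called), where 14.4% of all genes were called. At L2C 5 of 30 rose and 9 fell (14 called), where 42.4% of all genes were called. The median log2 change of the tested imprinted genes was -0.14, 0.04 and -0.08 at MII, E2C and L2C, against -0.05, -0.01 and 0.00 for all genes tested. Among maternally expressed genes 2 rose and 4 fell at L2C out of 13, and among paternally expressed genes 1 rose and 5 fell out of 14. Zrsr1 at E2C and Igf2r at L2C passed the TPM limit through the control group alone, and Zim1 at L2C through the mDKO group alone, which fixes the direction of their difference. Dcn at E2C and Cd81 at L2C reached 1 TPM in both mDKO libraries and 1 control library, so the limit favoured their direction. Without the TPM limit, 0, 1 and 9 imprinted genes were called at MII, E2C and L2C, and the call lost at MII was Phlda2, those lost at E2C were Asb4, Ube3a, Zrsr1, Mcts2 and Dcn, and those lost at L2C were Cd81, Cdkn1c, Gab1, Impact and Nap1l4. The change in mDKO at L2C differed from that at E2C, by the interaction test, for 11 of 34 genes, 5 higher and 6 lower at L2C, where 25.7% of all genes were called.

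**Figure D3:**
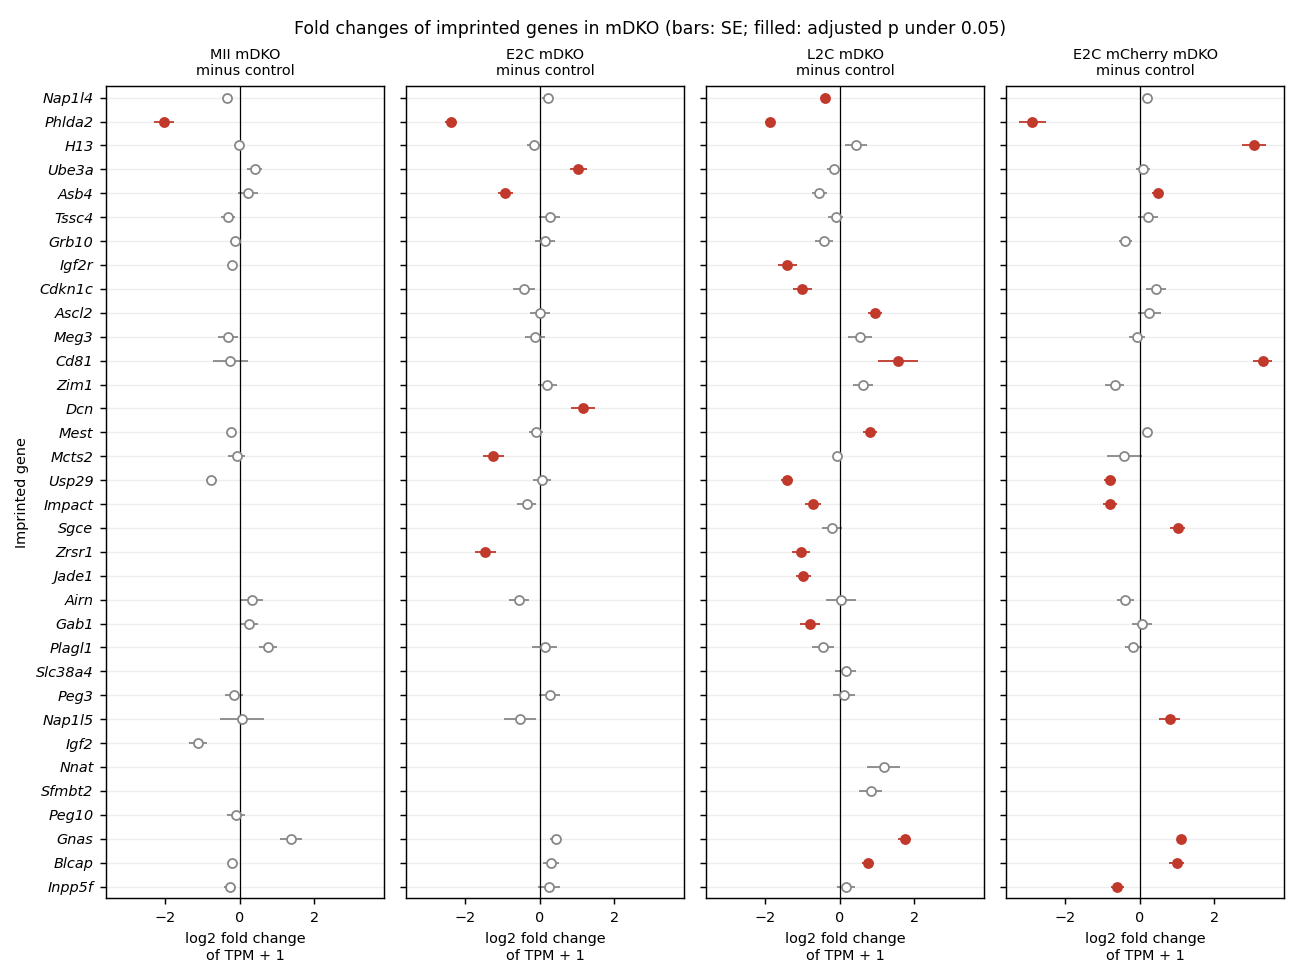
Log2 fold change of TPM + 1 (x axis) with its standard error for each tested imprinted gene (rows) in the 4 comparisons of mDKO with control embryos, the rightmost in mCherry-injected E2C embryos. Filled red points passed an adjusted p of 0.05, and genes without a point were below the TPM limit. Phlda2 is filled in all 4 panels.

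Phlda2 carried the only change called in all 4 comparisons of mDKO with control. It encodes a pleckstrin-homology protein that restrains growth of the placenta, is expressed from the maternal copy, and lies on chromosome 7 at 143501545 to 143503145, minus strand. That span of the whole gene reaches past the start used for the window shown above, so the window lies inside it. At MII its level was 4.90 and 7.61 TPM in mDKO oocytes, against 32.4 and 24.1 TPM in control oocytes. At E2C it was 14.9 and 14.5 TPM in mDKO and 77.0 and 83.1 TPM in control embryos, and at L2C 107 and 103 TPM in mDKO and 351 and 425 TPM in control embryos. Every mDKO library lay below every control library of its stage, and the mDKO mean was 0.222, 0.183 and 0.270 of the control mean at MII, E2C and L2C. The log2 changes were -2.02 ± 0.26 (adjusted p 0.0209), -2.37 ± 0.17 (0.000173) and -1.87 ± 0.13 (0.000196). Without mDKO replicate 1 the MII call was lost (adjusted p 0.0760). Phlda2 levels were higher at each later stage in both genotypes, and the difference between the mDKO changes at L2C and E2C missed the limit (interaction 0.50 ± 0.28, adjusted p 0.223).

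Among mCherry-injected E2C embryos, a separate set of libraries, Phlda2 stood at 4.78 and 7.46 TPM in mDKO and 67.9 and 37.2 TPM in control embryos (-2.87 ± 0.36, adjusted p 0.000329). Injected mDKO embryos held 11.3 and 20.7 TPM with Kdm3aWT and 19.03 and 13.4 TPM with Kdm3aHA. These 4 libraries all lay above the mCherry mDKO libraries and below the mCherry control libraries. The differences from mCherry missed the limit for both constructs, at 1.22 ± 0.36 for Kdm3aWT (adjusted p 0.0601) and 1.28 ± 0.36 for Kdm3aHA (0.0543). Between the constructs the difference was -0.06 ± 0.36 (adjusted p 0.937). In wild-type 4C embryos Phlda2 was at 26.3 and 54.7 TPM with Kdm3aWT and 58.0 and 63.8 TPM with Kdm3aHA, against 120.2 and 118 TPM with mCherry. All 4 Kdm3a libraries lay below the mCherry libraries, but neither change passed the adjusted limit (-1.62 ± 0.45, adjusted p 0.574, unadjusted p 0.00365; and -0.96 ± 0.45, adjusted p 0.843).

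**Figure D4:**
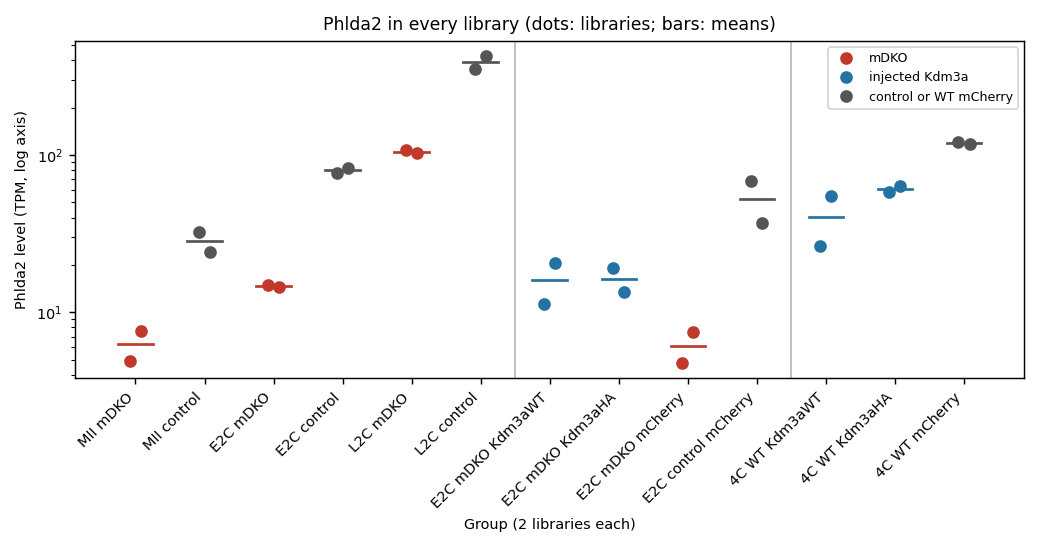
Phlda2 level in TPM (log axis) in all 26 libraries by group, with dots for libraries and bars for means. Each mDKO group lies below its control, the mDKO groups with Kdm3a lie between mDKO and control with mCherry, and the 4C groups with Kdm3a lie below 4C with mCherry.

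The neighbours of Phlda2 in the Kcnq1 domain did not share its direction throughout. At L2C Nap1l4, 10.4 kb away, and Cdkn1c, 40.5 kb away, were lower in mDKO than in control embryos. Ascl2 and Cd81, 532 kb and 434 kb away, were higher. Cdkn1c, the cyclin-dependent kinase inhibitor p57, was at 10.4 and 9.45 TPM in mDKO and 16.0 and 26.96 TPM in control L2C embryos (-0.996 ± 0.26, adjusted p 0.0195). Nap1l4 was at 58.7 and 62.6 TPM in mDKO and 76.9 and 84.1 TPM in control L2C embryos (-0.40 ± 0.13, 0.0414). Ascl2, a transcription factor of trophoblast, was at 21.6 and 22.4 TPM in mDKO and 9.80 and 12.4 TPM in control L2C embryos (0.93 ± 0.19, 0.00706). For these 3 genes the genotypes did not overlap. Cd81, a tetraspanin, was at 1.96 and 5.95 TPM in mDKO and 1.35 and 0 TPM in control L2C embryos (1.56 ± 0.53, 0.0487). Both mDKO libraries and 1 of the control libraries reached 1 TPM. The TPM limit therefore favoured this direction, the values are a description, and the call supports nothing. Beside Cd81, the 20 cumulus and granulosa markers summed to 154 and 121 TPM in mDKO and 64.9 and 69.6 TPM in control L2C embryos, with 8 in each mDKO library and 7 and 6 in the control libraries at 1 TPM or more. The 10 blood cell markers summed to 69.1 and 334 TPM in mDKO and 309.6 and 364 TPM in controls. Within that list Lyz2, Tyrobp and Cd74 averaged 105 TPM, 20.1 TPM and 21.1 TPM in mDKO, against 4.27 TPM, 0 and 7.61 TPM in controls, and Hba-a1 averaged 28.9 TPM in mDKO, against 247 TPM in controls. The part of these markers in the Cd81 result was not tested. The Cd81 call was lost without control or mDKO replicate 2 (adjusted p 0.207 and 0.191), that of Cdkn1c without control replicate 2 (0.0625), and that of Nap1l4 without control replicate 2 or mDKO replicate 1 or 2 (0.114, 0.214 and 0.119). Tssc4, an assembly factor of the U5 small nuclear ribonucleoprotein, was not called at MII, E2C or L2C, with changes of -0.31, 0.28 and -0.11. At E2C without injection the tested neighbours Cdkn1c (-0.42), Ascl2 (0.02), Tssc4 and Nap1l4 (0.21) were not called. With pseudocount 0.1 in place of 1, or with size factors, the Cd81 call at L2C was lost as well.

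In the growth factor pathway of IGF2, its receptor was lower in mDKO than in control embryos at L2C. Igf2r, maternally expressed after implantation and overlapped by the antisense noncoding RNA Airn, was at 0.822 and 0.912 TPM in mDKO and 3.44 and 4.42 TPM in control L2C embryos. The mDKO libraries lay below the limit of 1 TPM and the control libraries above it, with a change of -1.39 ± 0.26. Since the limit fixed this direction, the L2C values are a description and the call supports nothing. At MII Igf2r was abundant in both genotypes, at 46.4 and 49.8 TPM in mDKO and 56.7 and 55.2 TPM in control oocytes (-0.21 ± 0.10, 0.279), and at E2C it was under 1 TPM in all 12 libraries. Airn showed 1.40 and 4.59 TPM in mDKO and 2.36 and 2.81 TPM in control L2C embryos, which overlapped. The 2 genes share no exon bases in the annotation used, but no source used here gives the strand setting of the counting, so reads of overlapping genes cannot be told apart. Igf2, the growth factor itself, was kept at MII alone, at 2.80 and 2.08 TPM in mDKO and 5.66 and 7.26 TPM in control oocytes, a difference larger than the spread between libraries but not called (-1.12 ± 0.24, adjusted p 0.0664). Grb10 was not called in any comparison of mDKO with control, and was at 2.57 and 3.10 TPM in mDKO and 4.21 and 4.07 TPM in control L2C embryos, with changes of -0.11, 0.15, -0.43 and -0.38 at MII, E2C, L2C and in injected E2C embryos.

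From the Peg3 domain, Usp29 was lower in mDKO than in control at L2C and in injected E2C embryos. Usp29, which encodes a ubiquitin-specific protease and starts 96 bases beyond the start of Peg3, was at 9.57 and 9.07 TPM in mDKO and 26.3 and 26.3 TPM in control L2C embryos, with no overlap (-1.40 ± 0.17, adjusted p 0.000902). With mCherry at E2C it was at 4.03 and 4.28 TPM in mDKO and 7.96 and 7.83 TPM in control embryos (-0.79 ± 0.16, 0.00407). At E2C without injection the values were 6.08 and 5.43 TPM in mDKO and 5.15 and 5.81 TPM in controls, which overlapped (0.06 ± 0.24, 0.898). The change at L2C differed from that at E2C by -1.47 ± 0.23 (interaction, adjusted p 0.00119). At MII Usp29 was at 14.0 and 13.2 TPM in mDKO and 22.0 and 25.2 TPM in control oocytes, and missed the limit (-0.75 ± 0.15, 0.0571). Peg3, a zinc finger protein transcribed away from Usp29, and Zim1, another zinc finger gene of the domain, were not called between mDKO and control in the 3 comparisons in which each was tested, and Zim1 was below the TPM limit at MII and Peg3 with mCherry. Peg3 was at 1.40 and 0.854 TPM in mDKO and 0.747 and 1.16 TPM in control L2C embryos, and Zim1 at 1.18 and 1.54 TPM in mDKO and 0.449 and 0.583 TPM in controls.

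Around Peg10 on chromosome 6, the 3 listed genes behaved differently. Peg10, derived from a retrotransposon and needed for the placenta, was kept at MII alone, with 2.05 and 1.74 TPM in mDKO and 1.76 and 2.47 TPM in control oocytes, which overlapped. Asb4, which encodes a substrate receptor of a ubiquitin ligase and is maternally expressed, fell at E2C without injection, at 16.0 and 16.4 TPM in mDKO and 35.5 and 27.9 TPM in control embryos (-0.92 ± 0.20, adjusted p 0.0204). With mCherry it rose, at 31.3 and 32.4 TPM in mDKO and 21.5 and 23.4 TPM in control embryos (0.48 ± 0.15, 0.0250). The direction of Asb4 therefore turned between the injected and the uninjected libraries of the same stage and genotype contrast, and this difference was not tested. Its uninjected call was lost without either control library (adjusted p 0.239 and 0.112) and its injected call without any 1 of the 4 mCherry libraries (0.0575 to 0.123). Sgce, epsilon-sarcoglycan, is described with the injected embryos.

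The nested retrogenes Mcts2 and Zrsr1 were lower in mDKO than in control embryos at E2C. Zrsr1 passed the TPM limit there through the control group alone, which fixed its direction. Its E2C values are therefore a description, and its E2C call supports nothing. Mcts2, on chromosome 2 at 152687148 to 152687946, plus strand, stood at 4.78 and 5.13 TPM in mDKO and 9.89 and 17.0 TPM in control embryos (-1.23 ± 0.29, adjusted p 0.0245). At L2C the groups overlapped at 149 and 144 TPM in mDKO and 140.3 and 167 TPM in controls. Zrsr1, on chromosome 11 at 22972005 to 22976496, plus strand, was at 0.138 and 0.245 TPM in mDKO and 1.79 and 2.83 TPM in control E2C embryos (-1.46 ± 0.28). At L2C it was at 8.86 and 5.70 TPM in mDKO and 15.0 and 16.5 TPM in control embryos (-1.04 ± 0.24, adjusted p 0.0122). At L2C Zrsr1 was lower in every mDKO library than in any control library. Its host Commd1, on the opposite strand and sharing 412 exon bases with it, rose at E2C, at 178 and 155 TPM in mDKO and 87.8 and 78.9 TPM in control embryos (0.99 ± 0.15, 0.00439). H13, the host of Mcts2 on the same strand and with no shared exon bases, was not called at E2C without injection (-0.16 ± 0.18, 0.612). Calls lost without E2C control replicate 2 were those of Mcts2 (adjusted p 0.287) and Commd1 (0.0692) and the Zrsr1 call at L2C was lost without mDKO replicate 2 (0.0526). With mCherry, Mcts2 was at 3.58 and 2.90 TPM in mDKO and 3.48 and 6.02 TPM in control embryos, which overlapped. Zrsr1 was below the TPM limit of that fit, at 0.631 and 0.502 TPM in mDKO and 0.805 and 1.75 TPM in control embryos with mCherry.

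Other genes called at E2C without injection were Ube3a and Dcn, both higher in mDKO. Ube3a, the ubiquitin ligase of Angelman syndrome, was at 36.0 and 25.3 TPM in mDKO and 15.8 and 12.8 TPM in control embryos (1.04 ± 0.23, adjusted p 0.0216). At L2C Ube3a was at 19.8 and 23.7 TPM in mDKO and 21.4 and 27.2 TPM in controls (-0.15 ± 0.19, 0.561). Dcn, which encodes decorin, a proteoglycan of connective tissue, was at 3.16 and 2.16 TPM in mDKO and 1.06 and 0.271 TPM in control embryos (1.17 ± 0.32, 0.0440). It reached 1 TPM in both mDKO libraries and in 1 control library. The TPM limit therefore favoured its direction, its values are a description, and its call supports nothing. Beside Dcn, the cumulus and granulosa markers summed to 211 and 261 TPM in mDKO and 119 and 114 TPM in controls. Most of these sums was Serpine2, which averaged 184 TPM in mDKO and 87.2 TPM in control E2C embryos, and 851 TPM in control oocytes. The part of these markers in the Dcn result was not tested. Both calls were lost without either control library (adjusted p 0.0891 and 0.215 for Ube3a, 0.0787 and 0.375 for Dcn), and that of Dcn also with pseudocount 0.1 and with all 12 uninjected libraries in 1 fit.

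Gnas, Mest and Blcap, all abundant in oocytes, were higher in mDKO than in control embryos at L2C. Gnas was at 181 and 218 TPM in mDKO and 51.3 and 67.3 TPM in control L2C embryos (1.74 ± 0.17, adjusted p 0.000452). Mest was at 31.5 and 34.5 TPM in mDKO and 16.2 and 20.8 TPM in controls (0.81 ± 0.18, 0.0104), and Blcap at 33.2 and 31.4 TPM in mDKO and 17.1 and 20.3 TPM in controls (0.76 ± 0.16, 0.00948). For each of the 3 genes every mDKO library lay above every control library. In control embryos these 3 transcripts fell at L2C relative to E2C, with log2 changes of -1.86, -1.34 and -0.86 for Gnas, Mest and Blcap. The oocyte markers, 10 genes, summed to 8194 and 8450.4 TPM in mDKO and 3540.2 and 3224 TPM in control L2C embryos, and their part in the result was not tested. At MII Gnas was at 292 and 153 TPM in mDKO and 86.1 and 76.9 TPM in control oocytes, without overlap but short of the limit (1.37 ± 0.30, 0.0684), and at E2C at 328 and 257 TPM in mDKO and 232 and 200.3 TPM in controls (0.43 ± 0.16, 0.107). Gnas produces several imprinted transcripts from different promoters, which gene-level TPM does not separate.

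Impact, an inhibitor of the amino acid sensor kinase GCN2 expressed from the paternal copy, was lower in mDKO than in control embryos at L2C. It was at 3.49 and 3.83 TPM in mDKO and 6.28 and 6.94 TPM in control embryos (-0.71 ± 0.22, adjusted p 0.0385). It was lower as well with mCherry at E2C, at 3.11 and 2.67 TPM in mDKO and 5.64 and 5.87 TPM in control embryos (-0.80 ± 0.18, 0.00771). In neither comparison did the groups overlap. The L2C call was lost without any 1 of the 4 libraries (adjusted p 0.0692 to 0.155) and the injected call without mDKO mCherry replicate 2 (0.0624). Plagl1, a zinc finger regulator of growth, and Meg3, a noncoding RNA next to Dlk1, were not called in any of the 4 comparisons of mDKO with control. Plagl1 was at 2.91 and 1.51 TPM in mDKO and 3.67 and 2.90 TPM in control L2C embryos, and Meg3 at 7.30 and 3.66 TPM in mDKO and 3.03 and 3.54 TPM in controls. Nnat, a membrane proteolipid nested in Blcap, was tested at L2C alone and was not called there, at 3.31 and 3.69 TPM in mDKO and 2.16 and 0.256 TPM in control L2C embryos (1.18 ± 0.43, 0.0636).

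Among genes with imprinting through H3K27me3, Jade1 and Gab1 were lower in mDKO than in control embryos at L2C. Jade1 was at 6.08 and 5.96 TPM in mDKO and 12.0 and 13.6 TPM in control L2C embryos (-0.97 ± 0.20, adjusted p 0.00758), and its groups did not overlap. Gab1, an adaptor of receptor tyrosine kinases, was at 2.82 and 1.82 TPM in mDKO and 5.09 and 4.36 TPM in control L2C embryos (-0.80 ± 0.26, 0.0457). The Gab1 call was lost without control replicate 1 or 2 or mDKO replicate 2 (adjusted p 0.145, 0.0772 and 0.242), with pseudocount 0.1 and with size factors. Sfmbt2, a Polycomb-group protein, was at 1.99 and 2.02 TPM in mDKO and 1.09 and 0.374 TPM in control L2C embryos and missed the limit (0.83 ± 0.30, 0.0628). Slc38a4, an amino acid transporter, was at 1.495 and 0.907 TPM in mDKO and 0.827 and 1.07 TPM in controls, which overlapped. Smoc1, the remaining gene of this set, was kept in no stage. Sfmbt2, Slc38a4 and Jade1 were kept at L2C and 4C and at no earlier stage, and Gab1 at every stage. The level of Jade1 at 4C was 1.124 and 1.40 TPM with Kdm3aWT, 5.74 and 3.95 TPM with Kdm3aHA and 2.25 and 1.77 TPM with mCherry.

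Among mCherry-injected E2C embryos, 11 imprinted genes were called between mDKO and control. Of 24 tested, 7 rose and 4 fell in mDKO, where 46.9% of all genes were called, and the medians were 0.14 for these genes and 0.04 for all. Phlda2, Usp29, Impact and Inpp5f fell, and Asb4, H13, Gnas, Blcap and Nap1l5 rose, besides Cd81 and Sgce. Sgce reached the TPM limit of the injected E2C fit in the 2 mDKO mCherry libraries alone, and Cd81 in these and 1 other library of the 8, so the limit fixed the direction of Sgce and favoured that of Cd81. The values of these 2 genes are therefore a description, and their calls support nothing. Cd81 stood at 11.5 and 8.41 TPM in mDKO and 0.102 and 0.120 TPM in control embryos (3.29 ± 0.25). H13 stood at 35.2 and 33.5 TPM in mDKO and 3.32 and 3.14 TPM in control embryos (3.06 ± 0.33, adjusted p 0.000148). In E2C embryos without injection H13 was at 22.1 and 24.9 TPM in mDKO and 26.5 and 26.1 TPM in controls, so both mCherry control libraries lay below every other E2C library. Gnas stood at 283 and 276 TPM in mDKO and 128 and 131 TPM in control embryos (1.10 ± 0.10, 7.66e-05), and Sgce at 2.20 and 1.46 TPM in mDKO and 0.359 and 0.423 TPM in controls (1.01 ± 0.20). Blcap was at 37.7 and 34.2 TPM in mDKO and 19.1 and 16.2 TPM in control embryos (0.99 ± 0.20, 0.00358). Inpp5f, an inositol phosphatase, was at 4.09 and 4.13 TPM in mDKO and 6.56 and 6.92 TPM in controls (-0.60 ± 0.17, 0.0193), and Nap1l5, a retrogene related to nucleosome assembly proteins, at 1.13 and 1.66 TPM in mDKO and 0.713 and 0.0932 TPM in controls (0.80 ± 0.28, 0.0464). The Inpp5f call was lost without any 1 of the 4 mCherry libraries (adjusted p 0.0572 to 0.0942). The Nap1l5 call was lost without control mCherry replicate 2 (0.269), mDKO mCherry replicate 1 or 2 (0.0868 and 0.227), or Kdm3aWT replicate 1 or 2, which share the fit (0.0534 and 0.0553), and with pseudocount 0.1 or size factors. For all 11 genes the mDKO and control libraries did not overlap. As these genes were picked by their calls, this adds no support, here or for the called genes above. The share of all genes without overlap was not computed.

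Summed cumulus and granulosa markers and summed blood markers were higher in the mDKO than in the control mCherry libraries, though not every listed gene was. Of 20 cumulus and granulosa markers, 8 and 9 reached 1 TPM in the mDKO mCherry libraries and 5 in each control mCherry library, with sums of 441 and 431 TPM in mDKO and 87.6 and 80.4 TPM in controls. Serpine2 made up most of the mDKO sum, Hsd3b1 averaged 79.7 TPM in mDKO and was listed at 0 in control embryos, and Amh and Foxl2 were listed at 0 in both groups. The 10 blood cell markers summed to 48.6 and 29.1 TPM in mDKO with mCherry and to 11.4 and 7.87 TPM in control with mCherry. Within that list Lyz2 and Tyrobp averaged 24.3 and 11.1 TPM in mDKO, against 1.24 TPM and 0 in control. Others went the other way, with Hba-a1, Cd74 and Laptm5 at 0.409, 0.529 and 1.98 TPM in mDKO, against 4.53, 1.22 and 2.59 TPM in control. With Kdm3aWT and Kdm3aHA the cumulus and granulosa sums were 261 and 252 TPM and 237 and 253 TPM, and the blood sums 2.98 and 3.11 TPM and 4.23 and 3.19 TPM. Their part in the values of Cd81, Sgce and the other genes was not tested.

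**Figure D5:**
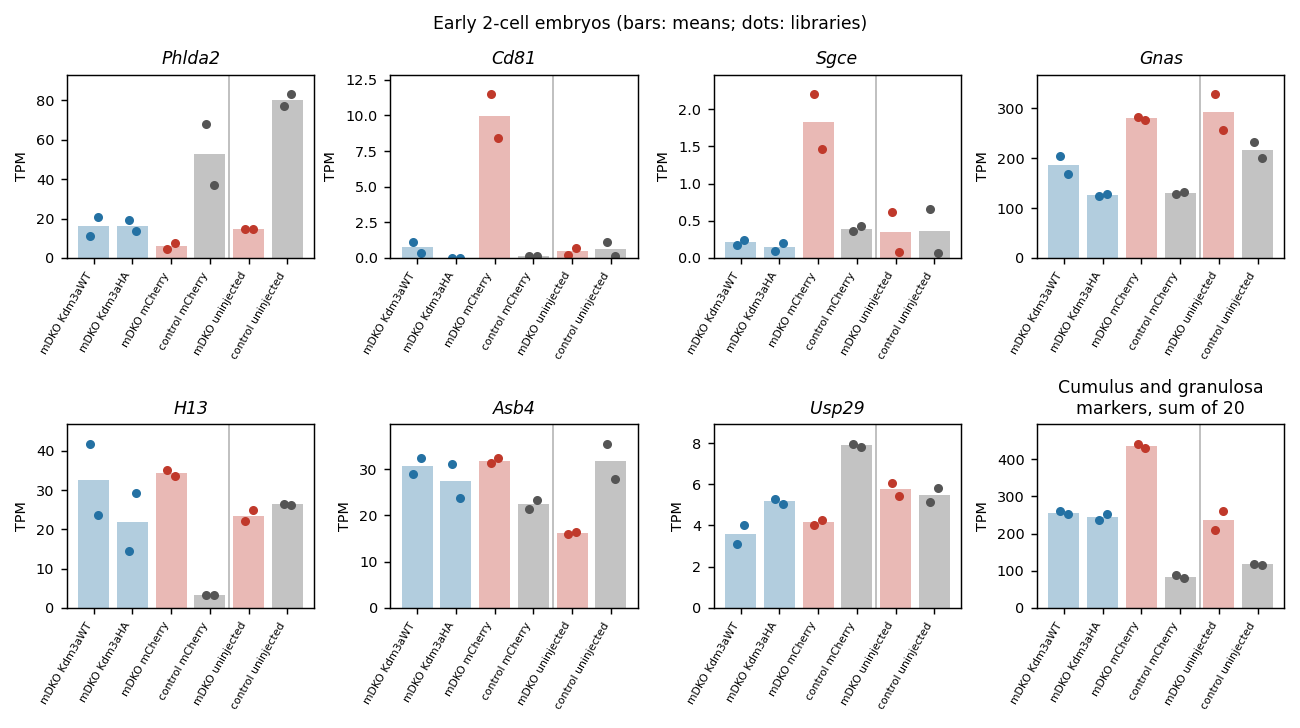
TPM of 7 imprinted genes and the summed TPM of 20 cumulus and granulosa markers in the E2C groups, with bars for means and dots for libraries. Groups right of the vertical line were not injected and are a separate table. Cd81, Sgce and the marker sum are highest in mDKO with mCherry, and H13 is lowest in control with mCherry.

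In mDKO embryos Gnas fell relative to mCherry with either construct of Kdm3a. Of 24 tested, 3 fell with Kdm3aWT, where 11.8% of all genes were called, and 3 fell with Kdm3aHA, where 10.8% of all genes were called. Both comparisons share the mDKO mCherry libraries, and the 3 genes were Gnas, Cd81 and Sgce. Since Cd81 and Sgce passed the TPM limit through the mDKO mCherry libraries, as given above, their lower values with the constructs are a description. Cd81 was at 1.11 and 0.365 TPM with Kdm3aWT, against 11.5 and 8.41 TPM with mCherry (-2.67 ± 0.25), and was listed at 0 in both Kdm3aHA libraries. Sgce was at 0.178 and 0.240 TPM with Kdm3aWT and 0.0999 and 0.205 TPM with Kdm3aHA, against 2.20 and 1.46 TPM with mCherry (-1.22 ± 0.20 and -1.29 ± 0.20). Gnas was at 204 and 168 TPM with Kdm3aWT and 123 and 127 TPM with Kdm3aHA, against 283 and 276 TPM with mCherry (-0.59 ± 0.10, adjusted p 0.00858, and -1.15 ± 0.10, adjusted p 0.000403). The Kdm3aHA libraries lay at or below the level of mCherry controls for Gnas and the Kdm3aWT libraries between mCherry mDKO and mCherry control. Kdm3aWT and Kdm3aHA differed in Gnas alone among the 24 genes (0.56 ± 0.10, 0.0291), where 3.29% of all genes were called. That call was lost without Kdm3aWT replicate 1 (0.0791), Kdm3aHA replicate 1 or 2 (0.133 and 0.100) or any 1 of the 4 mCherry libraries of the same fit (0.0512 to 0.0708).

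With TPM as deposited, the median of all genes in the Kdm3aWT comparison was -0.19 and that of the imprinted genes -0.08. Size factors bring the median of all genes to -0.00, and the Gnas change with Kdm3aWT then misses the limit. It was lost as well without mDKO mCherry replicate 1 or 2 (adjusted p 0.119 and 0.0866). With Kdm3aHA the medians were -0.17 for the imprinted genes and -0.08 for all. Usp29 and H13, called between mDKO and control with mCherry, were not called with either construct. Usp29 was at 3.10 and 4.03 TPM with Kdm3aWT and 5.31 and 5.06 TPM with Kdm3aHA, against 4.03 and 4.28 TPM with mCherry. H13 was at 41.8 and 23.6 TPM with Kdm3aWT and 14.5 and 29.4 TPM with Kdm3aHA, against 35.2 and 33.5 TPM with mCherry, and the groups overlapped for Kdm3aWT and not for Kdm3aHA.

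The injected and uninjected E2C tables share no library, so their mDKO changes can be set side by side. Of 21 imprinted genes tested in both, 11 had log2 changes of the same sign and 10 of opposite signs. Phlda2 was called in both and in the same direction, Asb4 was called in both in opposite directions, and the remaining calls were made in 1 table each. Across the 21 genes Pearson's r of the log2 changes was 0.45, and 0.03 without Phlda2. This is given as a description over genes, which are not independent replicates.

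In wild-type 4C embryos no imprinted gene was called with either construct. With limma 0 of 23 tested genes passed for Kdm3aWT against mCherry, for Kdm3aHA against mCherry and for Kdm3aWT against Kdm3aHA, and 0% of all genes were called in each (0 of 9669 genes). That background rests on 1 library: without 4C mCherry replicate 1, 491 of 9501 genes (5.17%) were called for Kdm3aWT against mCherry, and still 0 imprinted genes. At an unadjusted p under 0.05 there were 3, 1 and 2 imprinted genes in these comparisons, next to 776, 264 and 227 of all genes. Kdm3a itself stood at 108 and 53.4 TPM with Kdm3aWT and 70.5 and 161 TPM with Kdm3aHA, against 21.8 and 6.24 TPM with mCherry. Usp29 was at 12.9 and 14.7 TPM with Kdm3aWT, 2.48 and 14.3 TPM with Kdm3aHA and 5.82 and 2.60 TPM with mCherry, and Ube3a was at 11.5 and 23.1 TPM with Kdm3aWT, 9.82 and 13.1 TPM with Kdm3aHA and 6.17 and 4.57 TPM with mCherry. Mcts2, the most abundant of the 40 genes at this stage, was at 102 and 99.6 TPM with Kdm3aWT, 103 and 87.9 TPM with Kdm3aHA and 64.4 and 104 TPM with mCherry, and all 3 groups overlapped. Impact was at 26.9 and 27.9 TPM with Kdm3aWT, 16.8 and 43.1 TPM with Kdm3aHA and 27.1 and 42.5 TPM with mCherry. Nap1l4 was at 72.1 and 80.3 TPM with Kdm3aWT, 63.8 and 97.8 TPM with Kdm3aHA and 70.1 and 33.8 TPM with mCherry. The median change of all genes was 0.44 with Kdm3aWT and 0.35 with Kdm3aHA on deposited TPM and 0.01 for each after size factors. With Kdm3aWT it was 0.76 without mCherry replicate 1 and 0.13 without mCherry replicate 2. The median of the imprinted genes was 0.24 with Kdm3aWT and 0.42 with Kdm3aHA.

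Sfmbt2 and Jade1 had an unadjusted p under 0.05 between the constructs at 4C, as did 227 of all 9669 genes tested. Sfmbt2 reached the TPM limit of this fit in 2 Kdm3aHA libraries and 1 other library. The limit therefore favoured its direction, and its values are a description. Sfmbt2 was at 0.341 and 0.670 TPM with Kdm3aWT and 3.70 and 3.83 TPM with Kdm3aHA, against 1.27 and 0.541 TPM with mCherry, and did not overlap between the constructs. Gnas was at 25.3 and 25.8 TPM with Kdm3aWT and 94.7 and 26.2 TPM with Kdm3aHA, against 39.5 and 12.0 TPM with mCherry. The early 2-cell markers summed to 207 and 58.5 TPM with Kdm3aWT and 23.1 and 89.2 TPM with Kdm3aHA, against 17.9 and 4.03 TPM with mCherry, and their part in these values was not tested.

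Genes that write, read or protect imprints, a list of 32, held some called changes in mDKO oocytes and embryos. Of 31 tested at MII, 2 rose and none fell, where 4.25% of all genes were called. Dnmt3l, the cofactor of de novo DNA methylation in oocytes, averaged 222 TPM in mDKO and 103 TPM in control oocytes (1.11 ± 0.19, adjusted p 0.0436), and Kdm1b, an H3K4 demethylase needed for maternal imprints, rose by 0.49 ± 0.08 (0.0420). Both calls were lost without MII control replicate 2, mDKO replicate 1 or mDKO replicate 2 (0.0923, 0.187 and 0.0784 for Dnmt3l, 0.147, 0.182 and 0.157 for Kdm1b), and that of Kdm1b also without control replicate 1 (0.0887). At E2C 5 of 31 rose and none fell, where 14.4% of all genes were called. They were Trim28 (1.98), the corepressor recruited by ZFP57, Kdm1b (1.47), Tet3 (1.08), which oxidizes methylcytosine, Uhrf1 (1.02), which directs DNMT1 to replicated DNA, and Khdc3 (1.01) of the subcortical maternal complex. The count was 2 without E2C control replicate 1 and 1 without control replicate 2, next to 3.44% and 2.66% of all genes, and 9 without mDKO replicate 1 and 15 without mDKO replicate 2, next to 21.4% and 29.6%. Trim28 was lost without control replicate 2 (adjusted p 0.0529), and Tet3, Uhrf1 and Khdc3 without either control library (0.0771 to 0.234). At L2C 11 of 32 rose and 7 fell, where 42.4% of all genes were called, among them Uhrf1 (2.11), Kdm1b (1.904), Tet3 (1.40) and Ooep (1.27) higher and Trim28 (-1.31) lower. These 18 calls were 9 without mDKO replicate 2, next to 32.2% of all genes.

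With mCherry at E2C 10 of 31 genes of this list rose and 7 fell, where 46.9% of all genes were called, and the largest called changes were Khdc3 (3.14), Trim28 (1.26), Hells (1.13), a chromatin remodeller, Kdm1b (0.97) and Zfp57 (0.88). These 17 calls were 11 without control mCherry replicate 1 and 10 without mDKO mCherry replicate 1, next to 37.6% and 29.3% of all genes. Relative to mCherry, 1 rose and 4 fell with each construct, where 11.8% of all genes were called with Kdm3aWT and 10.8% with Kdm3aHA, and Dppa3 was the gene that rose in each (0.35 with Kdm3aWT and 0.27 with Kdm3aHA). Without mDKO mCherry replicate 1 or 2 the 5 calls were 1 for either construct, next to 0.856% and 2.14% of all genes with Kdm3aWT and 2.03% and 2.61% with Kdm3aHA, and Dppa3 was lost (adjusted p 0.100 and 0.0580 with Kdm3aWT, 0.180 and 0.103 with Kdm3aHA). The count was 10 without Kdm3aWT replicate 2 for that construct, next to 14.2% of all genes, and 1 and 3 without Kdm3aHA replicate 1 and 2 for the other, next to 5.81% and 8.10%. Between the constructs Dnmt1, the maintenance methyltransferase, was lower with Kdm3aWT (-0.63, adjusted p 0.0313), where 3.29% of all genes were called, a call lost without control mCherry replicate 2, mDKO mCherry replicate 1 or 2, Kdm3aWT replicate 1, or Kdm3aHA replicate 1 or 2 (highest adjusted p 0.125), with 5 genes of the list called without Kdm3aWT replicate 2, next to 13.7% of all genes. At 4C none of 30 was called by limma, as 0% of all genes were, and 2, 1 and 0 had an unadjusted p under 0.05 in the 3 comparisons.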

How the data were processed

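The authors deposited gene-level TPM values in 3 tables (uninjected stages, injected E2C, injected 4C) that share no library. Per the submitters' processing notes, the tools were RSEM 1.3.1, STAR 2.7.10b, SAMtools 1.9 and Bowtie2 2.3.4.1 on mm10, with no roles given, and no source used here gives the strand setting. TPM keeps no depth, so intervals for counting error could not be computed. All 26 libraries were used, and 0 columns of per-sample values lacked a sample.

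Genes at 1 TPM or more in at least 2 libraries of a fit were tested on log2(TPM + 1) with limma 3.58.1 in R 4.3.3 (lmFit, eBayes with trend, two-sided), with Benjamini-Hochberg adjustment over all genes tested and calls at adjusted p under 0.05. A fold change is on the log2(TPM + 1) scale, which understates changes of low genes. Each uninjected genotype comparison used its 4 libraries, the stage steps and the interaction all 12 uninjected libraries, and the injected comparisons all 8 (E2C) or 6 (4C) libraries of their table. With 2 libraries against 2, an exact permutation test cannot go below p = 0.333, so single values were not tested that way. The code was tested on simulated data.

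The members and lists were chosen with earlier results of these data known. A gene of the 40 was given by library where it was called or among the 5 highest of its stage, and from the 2 further lists (32 genes of imprint maintenance, 48 other imprinted genes) at most 5 called genes per comparison, by size of change. Alternatives were pseudocount 0.1, no TPM limit, a limit of 5 TPM, median-of-ratios size factors, the replicate number as a block, a fit over all 12 uninjected libraries and leaving out each library. Promoter sequences come from RefSeq on GRCm38.p6, and 32 of the 40 genes matched.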

Additional observations from a re-analysis of the deposited data

Results flagged for a closer look

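For 11 of the 40 genes the log2 change in mDKO at L2C minus that at E2C passed the test of the difference itself (limma interaction over the 12 uninjected libraries, adjusted p under 0.05). Lower at L2C were Igf2r (-1.55), Usp29 (-1.47), Ube3a (-1.19), Gab1 (-1.10), Jade1 (-0.94) and Nap1l4 (-0.62). Higher at L2C were Mest (0.90), Ascl2 (0.91), Sfmbt2 (0.93), Mcts2 (1.18) and Gnas (1.31). The log2 changes in mDKO were -1.39 at L2C for Igf2r, -1.40 at L2C and 0.06 at E2C for Usp29, and 1.74 at L2C and 0.43 at E2C for Gnas.

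The differences of Igf2r and Usp29 were called under every alternative run. Pseudocount 0.1 ended the calls of Ascl2, Gab1, Jade1 and Sfmbt2, and leaving out the TPM limit those of Ascl2, Gab1 and Gnas. Size factors ended those of Ascl2 and Sfmbt2, and the replicate block those of Gab1 and Sfmbt2. In uninjected E2C libraries Igf2r, Jade1, Sfmbt2 and Gab1 reached at most 0.674, 0.440, 0.273 and 0.956 TPM. On log2(TPM + 1) these low levels limited their E2C changes, and their differences mostly restate the L2C changes. The L2C change of Igf2r is itself a description, as given above. Ascl2 was called without L2C control replicate 2 and with no other single library left out (adjusted p 0.0539 to 0.145 in the other 11), and Sfmbt2 without L2C control replicate 1 and with no other (0.0552 to 0.135). Gab1 was lost without E2C control replicate 1 or 2, E2C mDKO replicate 2, L2C control replicate 1 or 2, L2C mDKO replicate 2, or MII mDKO replicate 1 or 2 (0.0619 to 0.143). Gnas was lost without E2C control replicate 1 or 2, E2C mDKO replicate 2, L2C control replicate 1 or L2C mDKO replicate 2 (0.0505 to 0.0902). Jade1 was lost without E2C control replicate 1, E2C mDKO replicate 1, L2C control replicate 2, or L2C mDKO replicate 1 or 2 (0.0586 to 0.102), and Mcts2 without E2C control replicate 2, E2C mDKO replicate 1, L2C control replicate 1, or L2C mDKO replicate 1 or 2 (0.0520 to 0.0725). Mest was lost without E2C control replicate 1, L2C control replicate 1 or L2C mDKO replicate 2 (0.0522 to 0.0592), Nap1l4 without E2C control replicate 2, L2C control replicate 2 or L2C mDKO replicate 1 (0.0675 to 0.0876), and Ube3a without replicate 2 of E2C or L2C control or replicate 1 of E2C or L2C mDKO (0.0692 to 0.0801). The early 2-cell markers were lower in mDKO at E2C and higher at L2C, and their part in these differences was not tested.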

How the results depend on the processing

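No call of the 40 genes turned direction under any alternative. Over all comparisons and alternatives, 1212 of these gene results stayed past the limit and 152 did not. Beside each count, the share of all genes called under the same alternative is given as background. Called genes at MII, 1 as reported, were 0 without the TPM limit (0.889% of all), 2 with a limit of 5 TPM (8.05%), 6 with the replicate block (19.9%), 4 with all 12 uninjected libraries in 1 fit (5.13%), and 0 to 2 when 1 library was left out (0.397% to 2.89%). At E2C, 6 as reported, they were 1 without the TPM limit (2.08%) and 1 to 8 when 1 library was left out (2 without control replicate 1, 1 without control replicate 2, with 2.66% to 29.6% of all genes). At L2C, 14 as reported, they were 9 without the TPM limit (21.0%) and 9 to 13 when 1 library was left out (9 without control or mDKO replicate 2, with 32.2% to 37.3% of all genes). For mDKO against control with mCherry, 11 as reported, they were 6 to 11 (6 without mDKO mCherry replicate 2, with 29.3% to 50.5% of all genes). For Kdm3aWT against mCherry, 3 as reported, they were 1 to 5 (1 without mDKO mCherry replicate 1 or 2, 5 without control mCherry replicate 1 or 2, with 0.856% to 14.2% of all genes), and for Kdm3aHA 2 to 4 (2.03% to 13.5%). Between the constructs, 1 as reported, they were 2 with pseudocount 0.1 (3.20%), 0 without the TPM limit (0.136%) and 0 to 2 when 1 library was left out (0.0734% to 13.7%). The ranges were 22 to 24 for E2C against MII (66.2% to 73.7%), 18 to 22 for L2C against E2C (57.6% to 66.9%) and 4 to 9 for the interaction (11 as reported, with 18.1% to 25.8% of all genes), and the 4C counts were 0 under every alternative. Same-numbered libraries share only a number, with correlations of their deviations between -0.10 and 0.36, so the replicate block pairs nothing known. With it the counts were 6, 7, 15, 10, 3, 3 and 1 for the 7 comparisons at MII, E2C and L2C with the injected E2C ones, 24 and 21 for the control steps and 9 for the interaction, next to 19.9%, 23.0%, 43.6%, 46.8%, 11.4%, 10.03%, 2.90%, 72.2%, 65.5% and 24.96% of all genes. Nap1l5 in mDKO with mCherry was lost under the block. Size factors ended the Nap1l4 call at E2C against MII in controls. The cause of these shifts was not tested. With 2 libraries a group and no depth, small differences were not detectable.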

Other observations

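A further list of 48 imprinted genes outside the 40 was read with the same fits. At MII Th, tyrosine hydroxylase, was lower in mDKO, the only call of 19 tested (-0.67) where 4.25% of all genes were called, and it was lost without any 1 of the 4 libraries (adjusted p 0.0916 to 0.246). At E2C Commd1 was the only call of 21, as given above, where 14.4% of all genes were called. At L2C 6 of 23 rose and 6 fell, where 42.4% of all genes were called, and the largest called changes were Gpr1 (1.56), Qpct (1.53) and Copg2 (0.996) higher and Snrpn (-1.15) and Tnfrsf23 (-0.99) lower. These 12 calls were 4 without mDKO replicate 1 and 5 without mDKO replicate 2, next to 33.2% and 32.2% of all genes. Copg2, a coatomer subunit on the opposite strand from Mest with 912 shared exon bases, was lost without control replicate 1 (0.0703) or mDKO replicate 2 (0.137), and reads of this pair cannot be told apart. Tnfrsf23 was lost without control replicate 2 or either mDKO library (0.182, 0.0963 and 0.103).

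With mCherry at E2C, 3 of 22 rose and 5 fell in mDKO, where 46.9% of all genes were called, led by Pon2 (1.27) and Chrac1 (1.20) higher and Tnfrsf23 (-0.72) lower. These 8 calls were 4 without control mCherry replicate 2, next to 34.1% of all genes, and 1 without mDKO mCherry replicate 1 or 2, next to 29.3% and 30.6%. With Kdm3aWT, where 11.8% of all genes were called, 1 of 22 fell relative to mCherry, Qpct (-1.29, lost without mDKO mCherry replicate 1 or Kdm3aWT replicate 1 at 0.161 and 0.0764), and with Kdm3aHA, where 10.8% were called, 1 of 22 fell, Pon2 (-1.32, lost without Kdm3aHA replicate 1 or 2 at 0.0707 and 0.0569). Between the constructs limma called 0 of 22, with 3 at an unadjusted p under 0.05 and 3.29% of all genes called, and at 4C, where 0% of all genes were called, 0 of 10, with 0 at that level in each comparison.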
